A study of Homo sapiens with 4 samples.

Results

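BCL2 family proteins decide at the mitochondrion whether a cell survives or dies, and 10 of their genes are described here in RCM-1 cells under methylthioacetic acid (MTA). The 10 were taken by name, out of 21357 genes named on the array, as every probe set whose platform symbol was BCL2L1, MCL1, BAX, BAK1, BAD, BID, BIK, BBC3, PMAIP1 or BCL2L11. This rule used no measured value, but the members were chosen with earlier results of these data known. RCM-1 is an established line from a well-differentiated human rectal adenocarcinoma, and it forms domes, fluid-filled blisters of the cell sheet that serve as a sign of differentiation. A probe set is a group of short probes that together give 1 signal for 1 transcript region.

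The 4 arrays came from nearly confluent cultures of this single line. The control array was labelled 0 h and held cells given the vehicle, 0.1% acetonitrile. The others held cells in 1 mM MTA that was replaced by vehicle medium after 6, 12 or 18 h, with a harvest at 24 h, so that 18, 12 and 6 h without MTA preceded the harvest. A longer exposure therefore came with a shorter recovery, and the effects of these times cannot be told apart. The sources used here do not say plainly when the 0 h cells were harvested. Each time has a single array without a replicate. Tests were therefore not possible, and precision is limited by the 4 arrays. All ratios share the 0 h array.

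Anti-apoptotic members such as BCL-XL (gene BCL2L1) and MCL1 bind and restrain their relatives. The effectors BAX and BAK (BAK1) form pores in the outer mitochondrial membrane, through which cytochrome c leaves to switch on caspases. BH3-only proteins, named after the short helix they share with the rest of the family, act upstream: they occupy the grooves of the survival proteins, and some, such as BIM (BCL2L11) and BID, also activate the effectors directly. In the intestine this balance sets how damaged crypt cells are removed, and colorectal tumours often lean on BCL-XL and MCL1.

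The array held 30 probe sets for the 10 genes. Of these, 29 carried a single symbol, and 22 of the 29 passed a floor, a mean log2 signal over the 4 arrays of at least that of a signal of 34. They measured 8 of the 10 genes. BAX was covered by 2 probe sets, both below the floor. BBC3 (PUMA), a BH3-only protein, was covered by a single probe set below the floor that also carries microRNA genes, so no level is given for it. The probe set nearest above the floor was a BCL2L11 one (1553088_a_at), with a mean signal of 34.9. A gene is represented below by its brightest kept probe set.

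The whole arrays also moved. The median log2 ratio to 0 h was, for the 10504 kept genes, 0.11 at 6 h, −0.28 at 12 h and −0.47 at 18 h. On the 18 h array the mean log2 ratio was −0.25 for added poly-A control transcripts and −0.05 for hybridization controls. As the only measure of error these arrays hold, the 18 h log2 ratios of a gene's 2 brightest kept probe sets were compared in 4674 genes, and the SD of their difference was 0.478. Variation between cultures is not part of it. All 11 markers of colorectal epithelium passed the floor, as did 1 of 14 markers of fibroblasts, leukocytes and endothelium, PECAM1, with a mean signal of 37.1.

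At 18 h each of the 8 measured genes had a signal below that at 0 h, and BID stood lowest. On the log2 scale the 8 ratios ran from −1.64 for BID to −0.40 for BCL2L11, with a median of −0.56. Over all kept genes 78.3% lay below 0 on this scale, and 3.19% lay below −1.5, the study's threshold, a 2.83-fold lower signal. Of the 8 genes, 1 was below −1.5, namely BID, and none was above 1.5, where 1.22% of all genes lay. By brightest probe sets 6 of the 8 were lower than the median of all genes. BCL2L1 was above it by 0.0035 and BCL2L11 by 0.07. This split depends on the probe set. Some other kept probe sets of BCL2L1 and BCL2L11 lay below that median, and 214057_at of MCL1 and 204286_s_at of PMAIP1 lay above it. At a log2 ratio of 1, a 2-fold difference, BID was again the only gene beyond the limit (15.8% of all kept genes were lower by that much). All 22 kept probe sets were below 0, against 78.1% of all kept probe sets, and 2 were below −1.5, against 3.11% of all kept probe sets, and these were 1 each of BID and MCL1.

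**Figure D1:**
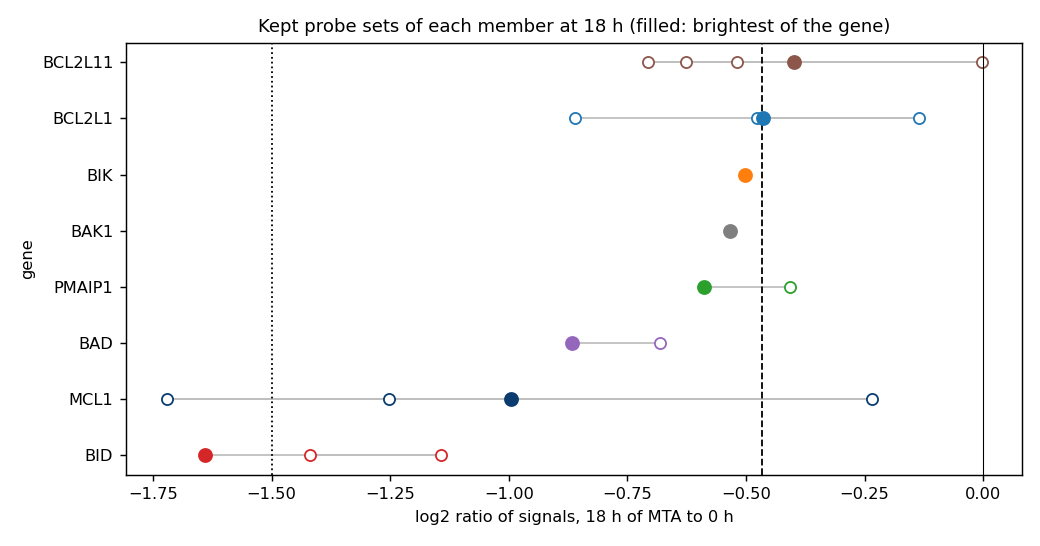
Log2 of the signal at 18 h of MTA over that at 0 h (horizontal axis) for the 22 kept probe sets of 8 genes (rows), with a filled point for the brightest probe set of a gene, open points for its others and a grey line over their range. The dashed line marks the median of all kept genes, −0.47, and the dotted line −1.5. All points lie below 0, the 3 of BID all lie left of −1, and those of MCL1 spread from −1.72 to −0.23.

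MCL1 is a short-lived survival protein that neutralises BIM, NOXA and BAK, and its mRNA turns over quickly as well. Its brightest probe set (200797_s_at) had signals of 1879, 2138, 1206 and 942.2 at 0, 6, 12 and 18 h. The 12 and 18 h arrays were the low ones, and the 6 h array was the highest. The log2 ratios were 0.19, −0.64 and −0.996, so that 50.2% of the 0 h signal was left at 18 h. Of all kept genes, 16% had a ratio at 18 h as low or lower.

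The other probe sets of MCL1 did not give the same size of difference. The next brightest (200798_x_at) had 1217, 1108, 585.5 and 369 at 0, 6, 12 and 18 h, and a log2 ratio of −1.72 at 18 h. Those of 214056_at were 95.96, 110.3, 48.63 and 40.26, with a log2 ratio of −1.25. The 4th kept probe set, 214057_at, had 67.11, 95.92, 57.77 and 57.05, with a log2 ratio of −0.23, which is above the median of all genes. All 4 were lower at 18 h than at 0 h, but their ratios differed by up to 1.49. This is a range over 4 probe sets, of which 214056_at and 214057_at are dim. It is therefore not directly comparable with the SD of 0.478 between the 2 brightest probe sets of a gene. A further pair (200796_s_at and 227175_at) lay far below the floor, with signals under 17 on every array.

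BCL2L1 encodes BCL-XL and, by splicing, the pro-apoptotic BCL-XS, and the probe sets were not assigned to either. Signals of its brightest probe set (212312_at) were 906.4, 936.7, 673.8 and 657.2 at 0, 6, 12 and 18 h. With the deposited scaling the arrays fell into a higher pair, 0 and 6 h, and a lower pair, 12 and 18 h. After median centring the log2 ratios at 6, 12 and 18 h were −0.07, −0.15 and −0.01. The log2 ratio at 18 h with the deposited scaling, −0.46, was 0.0035 above the median of all genes. Another probe set, 231228_at, had 353.2, 432.7, 516.6 and 321.7, with its highest signal at 12 h and a log2 ratio of 0.55 there. The remaining pair, 206665_s_at and 215037_s_at, had log2 ratios of −0.48 and −0.86 at 18 h and were lower than 0 h on all 3 MTA arrays.

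At 18 h the log2 ratio of MCL1 was lower than that of BCL2L1 by a difference of −0.53, against 0.14 at 6 h and −0.21 at 12 h. The difference at 18 h is slightly larger than the SD between probe sets of 1 gene, and the range among the probe sets of MCL1 itself is larger still. After quantile normalization BCL2L1 had a log2 ratio of 0.11 and MCL1 one of −0.40.

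**Figure D2:**
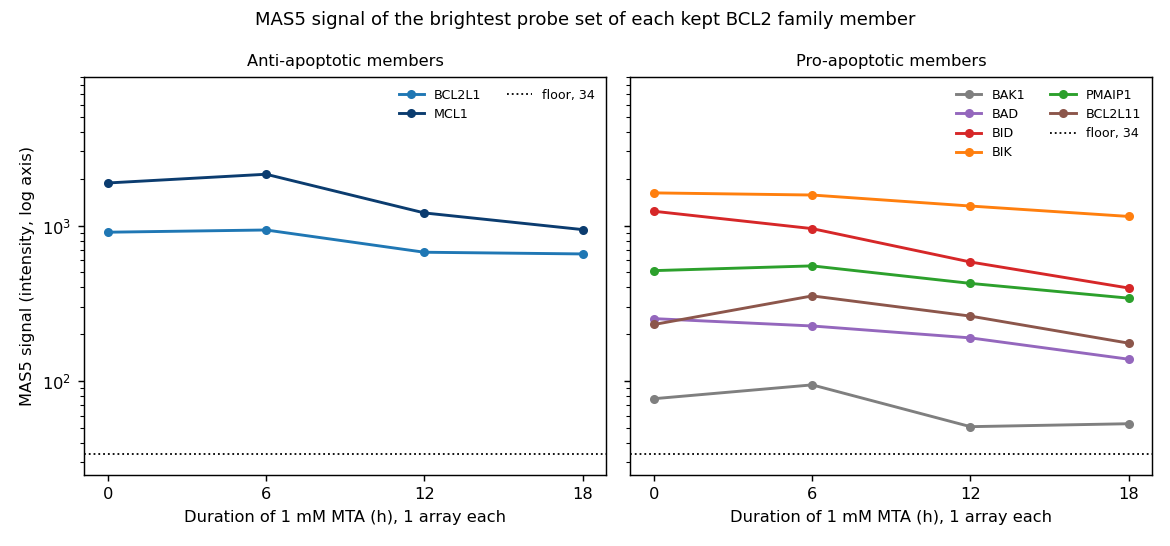
MAS5 signal (vertical log axis) of the brightest kept probe set of the anti-apoptotic members (left) and the pro-apoptotic members (right) on the 0, 6, 12 and 18 h arrays (horizontal axis), 1 point per array, with the floor of 34 dotted. BID goes from 1236 at 0 h to 396.6 at 18 h, while BIK stays between 1145 and 1622. Heights of different probe sets are not comparable, only the course of each line.

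Of the effectors, only BAK1 was measured above the floor, and it was dim. BAK sits in the outer mitochondrial membrane, held by MCL1 and BCL-XL until it is released. Its signals (203728_at) were 77.09, 94.61, 50.97 and 53.24 on the 0, 6, 12 and 18 h arrays, highest at 6 h and nearly equal at 12 and 18 h. The log2 ratios were 0.30, −0.60 and −0.53.

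BAX is the effector that moves from the cytosol to mitochondria when a cell is told to die. One probe set (208478_s_at) had signals of 27.19, 13.76, 19.44 and 18.02 at 0, 6, 12 and 18 h. The other (211833_s_at) had 22.2, 16.38, 30.5 and 8.903. They disagreed at 12 h, where one was below and the other above its 0 h signal, and both are too dim for a ratio to be read.

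BID links death receptors to mitochondria, since caspase-8 cuts it into the active fragment tBID. Its brightest probe set (211725_s_at) had signals of 1236, 955.8, 583.1 and 396.6 in order of exposure. Each longer exposure came with a lower signal, and 32.1% of the 0 h signal was left at 18 h. The log2 ratios were −0.37, −1.08 and −1.64. At 12 h BID was the only one of the 8 genes below −1, where 6.29% of all kept genes lay, and no member was above 1, where 3.28% lay. At 6 h none of the 8 was below −1 or above 1, against 0.476% and 4.68% of all kept genes.

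The other probe sets of BID were also lower at each longer exposure, but 204493_at hardly differed between 12 and 18 h. Signals of 227143_s_at were 443.6, 316.9, 225.8 and 201, and those of 204493_at were 333.1, 257.1, 126.7 and 124.6. Their log2 ratios at 18 h were −1.14 and −1.42, so the 3 probe sets spanned 0.50. All 3 lay below the median of all genes by more than 0.478, the SD between the 2 brightest probe sets of a gene. Relative to the median of the kept probe sets the brightest had −1.19, relative to the poly-A controls −1.39 and after quantile normalization −1.06. It was below −1 under each of these scalings and below −1.5 with the deposited scaling and relative to the hybridization controls, where it had −1.59.

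The promoter table of RefSeq (GRCh38.p14) held 14 windows for 8 of the members, and MCL1 and BIK were not among them. Here the 250 bases before the start of transcription are shown for the member with the lowest ratio, BID, for the one with the highest at 18 h by the brightest probe set, BCL2L11, and for the survival gene BCL2L1. Capitals mark CACGTG (the E-box that MYC and MAX can bind) in BID, GTAAACA (a forkhead motif) in BCL2L11 and the letters TATAAA in BCL2L1, searched on both strands. The TATAAA matches begin 208 and 125 bases before the start of transcription.
BID, chr22:17773984-17774233, minus strand: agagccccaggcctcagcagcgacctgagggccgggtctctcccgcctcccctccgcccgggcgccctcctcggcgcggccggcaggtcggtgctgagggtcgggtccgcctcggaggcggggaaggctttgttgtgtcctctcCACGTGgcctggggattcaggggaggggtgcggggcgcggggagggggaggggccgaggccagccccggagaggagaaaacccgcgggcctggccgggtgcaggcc
BCL2L11, chr2:111120664-111120913, plus strand: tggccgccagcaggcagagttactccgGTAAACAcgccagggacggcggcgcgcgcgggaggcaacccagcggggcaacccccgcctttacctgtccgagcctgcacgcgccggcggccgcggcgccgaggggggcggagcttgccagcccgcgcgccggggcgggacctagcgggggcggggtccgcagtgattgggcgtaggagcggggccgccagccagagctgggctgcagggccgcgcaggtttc
BCL2L1, chr20:31723964-31724213, minus strand: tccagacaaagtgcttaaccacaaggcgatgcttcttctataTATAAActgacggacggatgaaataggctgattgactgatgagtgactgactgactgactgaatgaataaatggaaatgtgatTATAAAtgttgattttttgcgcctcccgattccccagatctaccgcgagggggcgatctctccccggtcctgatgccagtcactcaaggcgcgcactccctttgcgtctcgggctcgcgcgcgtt

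CACGTG lay in 2 of the 5 windows of BID, which overlap, and in those of BAX and BBC3, against 6.34% of all 35116 windows of the same length. GTAAACA lay in the only window of BCL2L11 (2.98% of all windows) and TATAAA in 1 of the 2 windows of BCL2L1 (10.7%). Also searched were CCAAT, in 6 of the 14 member windows (32% of all windows), and GGGCGG, in 10 of them (42.6%). Because the motifs were chosen after the promoters were read, the matches in the windows shown were known beforehand. The shares of all windows therefore do not test them. A match is a description of the letters and no proof of binding. The BCL2L11 window had 76.8% G and C, the BID window shown 76.4% and the BCL2L1 window shown 50%, against a median of 58% over all windows.

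BCL2L11 encodes BIM, a potent BH3-only protein that binds every survival member and is kept low by ERK signalling. By brightest probe sets and the deposited scaling it was the member with the highest ratio at each time. With the mean over kept probe sets PMAIP1 was higher at 6 h (0.33 against 0.32) and at 12 h (−0.16 against −0.23), and after quantile normalization BIK (0.12) and BCL2L1 (0.11) were higher at 18 h than BCL2L11 (0.07). Signals of the brightest probe set (225606_at) were 231.2, 353.1, 261.8 and 175.4 in the same order. For this probe set, only the 18 h array was below the 0 h array. The log2 ratios were 0.61, 0.18 and −0.40, and 86.5% of all kept genes had a ratio at 6 h as low or lower. Its 5 kept probe sets had log2 ratios at 18 h between −0.71 and −0.0033. At 6 h 4 of them were above 0, and 1553088_a_at, with a log2 ratio of −0.16, was not. At 12 h 3 of the 5 were below 0, with log2 ratios of −0.34 (1553096_s_at), −0.26 (1555372_at) and −0.83 (1553088_a_at), so that the brightest probe set and the mean over kept probe sets, −0.23, differ in sign there.

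PMAIP1 encodes NOXA, a BH3-only protein that pairs with MCL1 and sends it to the proteasome. Its brightest probe set (204285_s_at) had signals of 513.3, 550.6, 424.9 and 341.5 at 0, 6, 12 and 18 h, and the other (204286_s_at) had 350.9, 513.4, 338 and 264.8. Both were highest at 6 h and lowest at 18 h. The log2 ratios at 18 h were −0.59 and −0.41. The log2 ratio of PMAIP1 exceeded that of its partner MCL1 by 0.41 at 18 h and by 0.37 at 12 h, and at 6 h it was below it by a difference of −0.09, all smaller than the SD between probe sets of 1 gene at these times.

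BAD, which binds BCL-XL unless growth factor signalling phosphorylates it, had signals (209364_at) of 252.2, 226.2, 189.7 and 138.3 at 0, 6, 12 and 18 h. They were lower on each array of longer exposure. Its log2 ratio at 18 h was −0.87, and the other kept probe set (1861_at) had −0.68. BIK, a BH3-only protein of the endoplasmic reticulum that is known in epithelia, had 1622, 1572, 1335 and 1145 (205780_at). Its log2 ratio at 18 h was −0.50, 0.04 below the median of all genes by a single probe set.

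**Figure D3:**
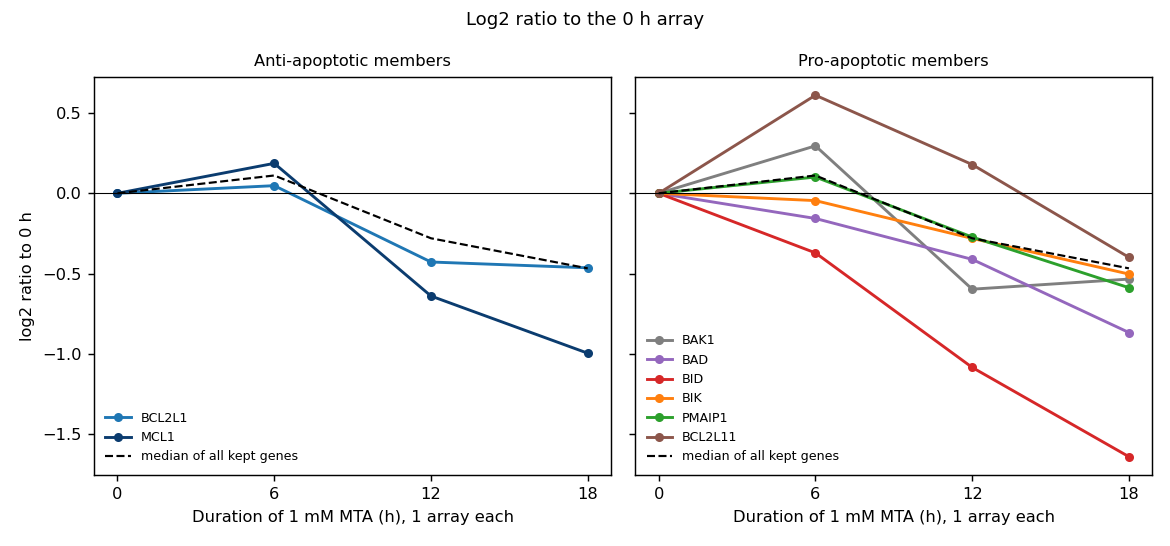
Log2 ratio of signals to the 0 h array (vertical axis) at 6, 12 and 18 h of MTA (horizontal axis) for the brightest kept probe set of the anti-apoptotic members (left) and the pro-apoptotic members (right), with the median of all kept genes dashed. BCL2L11 lies above the dashed line and BID below it on all 3 MTA arrays, and BCL2L1 ends on it at 18 h.

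The anti-apoptotic members had median log2 ratios of 0.12, −0.53 and −0.73 at 6, 12 and 18 h, which over 2 genes is their mean. The 6 measured pro-apoptotic members had medians of 0.03, −0.35 and −0.56. The pro-apoptotic median minus the anti-apoptotic one was −0.09, 0.19 and 0.17, and these arrays give no error for a group median. At each time the sign of this difference depended on the choice of probe sets. After quantile normalization the medians at 18 h were −0.14 for both groups, and after median centring −0.28 for the anti-apoptotic and −0.11 for the pro-apoptotic members. Among the pro-apoptotic members alone the ratios at 18 h spanned from −1.64 for BID to −0.40 for BCL2L11, a difference of −1.24, and those of both survival genes lay within that span.

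The drop between the arrays, by brightest probe sets, was spread unevenly. From 6 to 12 h the log2 ratio changed by −0.83 for MCL1, by −0.89 for BAK1 and by −0.71 for BID, where the median over all kept genes changed by −0.39. From 12 to 18 h the change was −0.58 for BCL2L11 and −0.56 for BID, against −0.20 over all genes, while BAK1 had 0.06 and BCL2L1 −0.04. From 6 to 18 h all 8 genes had a negative change, as did 92.1% of all kept genes, whose median change was −0.58. Of the 8, BID, at −1.27, and MCL1, at −1.18, had the most negative changes by brightest probe sets. With the mean over kept probe sets BID had −0.41 at 6 h and −1.40 at 18 h. MCL1 had 0.19 and −1.05, so its change was then the larger one.

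Scaling decides the sign of several members. At 18 h, BID, MCL1, BAD, BAK1 and PMAIP1 had log2 ratios below 0 under all 5 scalings of the arrays (deposited, centred on the median, quantile-normalized, and relative to poly-A or to hybridization controls), PMAIP1 with −0.0068 after quantile normalization. The signs of BCL2L1, BIK and BCL2L11 turned. At 6 h BCL2L11 and BAK1 were above 0, and BID, BAD and BIK below it, under all 5.

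The genes whose course was most like that of BID, by the Euclidean distance of the log2 ratios at 6, 12 and 18 h over 8021 genes with a mean signal of at least 100, were CCDC137, PLBD1, PDSS1, POLR2D and SLC25A33, at distances from 0.0548 to 0.0786. For BCL2L11 they were CTNNAL1, SNAPC3, SLC15A1, KHK and PLEKHA8, at distances from 0.0808 to 0.132. Among the members the one closest to BID was MCL1, at a distance of 0.961. With 3 ratios to a shared array the measure is coarse.

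Other genes of the pathway were taken from 4 lists. Of 16 other BCL2 family and mitochondrial death genes 10 were kept, and none was below −1 or above 1 at 18 h, against 15.8% and 3.15% of all kept genes. Their median log2 ratio was −0.27. BCL2 itself, the founding survival gene, had no probe set above the floor.

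Of 13 genes of the apoptosome, the caspases and their inhibitors, 12 were kept, with a median log2 ratio of −0.34, and 2 were below −1 at 18 h, against 15.8% of all kept genes. ENDOG, a mitochondrial endonuclease, had signals of 156.9, 96.53, 47.99 and 38.32 at 0, 6, 12 and 18 h and a log2 ratio of −2.03. CYCS, cytochrome c, had 6913, 7157, 3875 and 3217 and a log2 ratio of −1.10, with −1.70 on its other kept probe set. BIRC3 was not analysed here.

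Death receptors act upstream of BID. Of 14 genes of the receptors and their complex, 10 were kept, with a median log2 ratio of −0.65 at 18 h, below the −0.47 of all genes, and 3 were below −1, against 15.8% of all kept genes. TNFRSF10A, a receptor of the death ligand TRAIL, had signals of 363.9, 209, 109.3 and 105.7 at 0, 6, 12 and 18 h and a log2 ratio of −1.78, and between −1.78 and −1.24 on its 3 kept probe sets. CFLAR, which encodes the caspase-8 inhibitor FLIP, had 920.6, 596.2, 363 and 277.2 and a log2 ratio of −1.73, but its 4 kept probe sets ranged from −2.86 to −0.03. FADD, the adaptor that brings caspase-8 to the receptor, had 406.8, 306.2, 267.6 and 186.7 and a log2 ratio of −1.12. CASP8, which cuts BID, had a log2 ratio of −0.44. TNFRSF10B, another TRAIL receptor, had −0.50, and its 3 kept probe sets ranged from −0.93 to −0.04. RIPK1 was not analysed here.

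Of 10 genes that control MCL1 and the BH3-only proteins 9 were kept, with a median log2 ratio of −0.31 at 18 h. FBXW7, which marks MCL1 for destruction, had signals of 252.5, 290.7, 139.2 and 114.5 and a log2 ratio of −1.14. Its 3 kept probe sets ranged from −1.14 to −0.81. By brightest probe sets it was the only gene of the list below −1, where 15.8% of all kept genes lay. DYNLL2 and BTRC each had another kept probe set below −1, at −1.11 and −1.01. HUWE1 (MULE), another ubiquitin ligase of MCL1, had −0.28, and USP9X, which removes ubiquitin from MCL1, had −0.13.

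**Figure D4:**
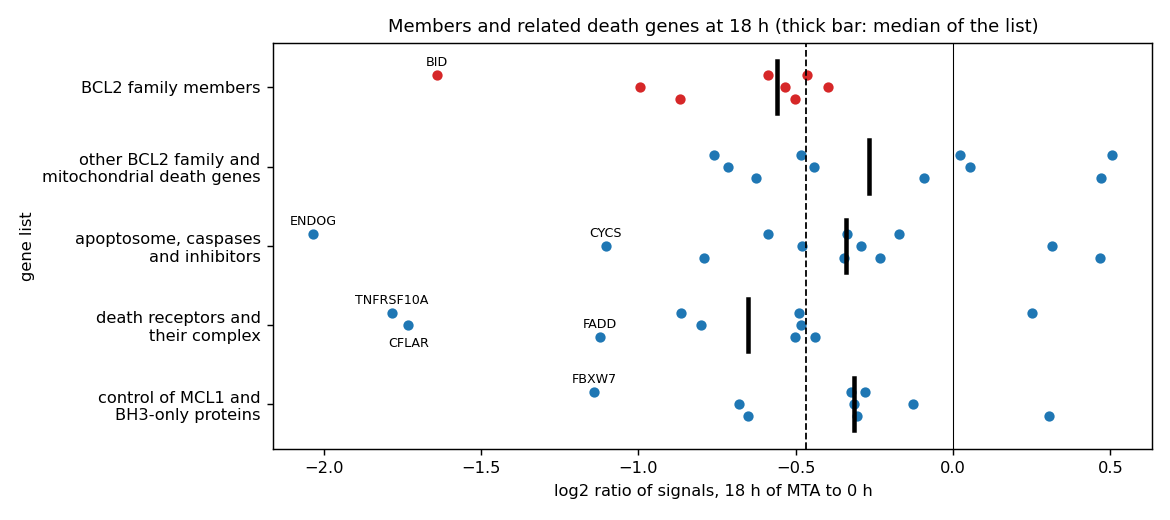
Log2 of the signal at 18 h of MTA over that at 0 h (horizontal axis) for the 8 kept BCL2 family members (top row, red) and the kept genes of 4 related lists (blue), with 1 point per gene and a thick bar for each list's median. The dashed line marks −0.47, the median of all kept genes. Genes below −1 are named, and the lowest is ENDOG at −2.03.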

How the data were processed

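RNA from RCM-1 cells was hybridized by the array's manufacturer to Affymetrix U133 Plus 2.0 arrays, 1 per duration of MTA. The authors deposited MAS5 signal intensity on a linear scale from Affymetrix Expression Console, with no version or scaling target stated in the sources used here. Groups follow the time given in the labels.

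The 62 control probe sets were set aside. Of the other 54613, 20949 had a mean log2 signal of at least log2 of 34, about as many as the study counted as detected, and were kept. Log2 ratios to 0 h used no pseudocount. Symbols came from GEO's platform annotation, updated by RefSeq gene ID, and 41091 probe sets had 1 symbol, 1801 several and 11721 none. A call was a log2 ratio beyond 1.5, the study's threshold. No test was possible. All members were named, and genes of the related lists beyond 1 at 18 h, while other list genes were named after their values had been seen. Members and lists were chosen with earlier results of these data known. Motifs were chosen after the promoters were read. Protein sequences were not used here, and some related genes are not reported here. The calculation recovered planted changes on simulated data. Alternatives covered the filter, scaling, pseudocount, threshold and probe set choice. Python 3.11.15, NumPy 2.4.6, pandas 2.3.3 and matplotlib 3.10.9 were used.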

Additional observations from a re-analysis of the deposited data

How the results depend on the processing

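Over 12 alternatives the number of member genes higher at 18 h stayed at 0. The number lower at 18 h, 1 (BID), was 0 after median centring, quantile normalization, scaling to the poly-A controls, with a threshold of 2, with the mean over kept probe sets and with the brightest probe set without _x_at or _s_at in its name. It was 1 without a filter, with a mean signal of at least 100, relative to the hybridization controls, with a pseudocount of 16, with a threshold of 1 and with symbols of every probe set. The median log2 ratio of the anti-apoptotic members at 18 h, −0.73, was −0.14 after quantile normalization and −0.28 after median centring, and that of the pro-apoptotic members, −0.56, was −0.14 and −0.11. The pro-apoptotic minus the anti-apoptotic median at 18 h ran from −0.21 to 0.25. At 6 h this difference ran from −0.25 to 0.12, and at 12 h from −0.02 to 0.25. Of 237 single gene values, which leave out the changes of threshold because these cannot move a log2 ratio, 7 moved by more than the SD between probe sets, among them MCL1 at 18 h with −0.23 on its brightest probe set without those endings. These probe sets share arrays, and dim members have the least certain ratios. No paired analysis was possible because each time has 1 array. Leaving out a replicate was not possible for the same reason.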

Other observations

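BMF, a BH3-only gene outside the 10, had signals of 2.501, 52.13, 48.14 and 61.98 on the 0, 6, 12 and 18 h arrays on its only probe set, and its mean signal, 24.97, was below the floor of 34. All 3 MTA arrays were above that floor and the 0 h array was far below it. TNFSF10, the gene of the death ligand TRAIL, had 4.782, 44.28, 45.69 and 57.23 on its brightest probe set. Both genes were singled out once their values were known, and no fold is given because the 0 h readings are too dim. APAF1, the scaffold of the apoptosome, had log2 ratios of 1.28, 0.26 and 0.47 on the MTA arrays by its only kept probe set. Of the 12 kept genes of its list it was the only one above 1 at 6 h, where 4.68% of all kept genes lay. It too was named after its values had been seen.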
